A study of Caenorhabditis elegans with 2 samples.

Results

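The glutathione S-transferase genes gst-4, gst-5, gst-6, gst-7, gst-10, gst-12, gst-13, gst-14, gst-30 and gst-38 of the nematode Caenorhabditis elegans have been reported as targets of the transcription factor SKN-1. They were taken by name from the gene annotation and are 10 of the 19973 protein-coding genes on the 6 nuclear chromosomes. The labels do not say on what evidence they were reported, and the list was chosen with earlier results of these data known. The shares of members with a peak or a site are therefore descriptions only. Binding was measured by ChIP-seq, in which DNA bound by a tagged protein is precipitated and sequenced. The worms were L1 larvae of both sexes, the first larval stage, from strain OP178. That strain carries the unc-119(ed3) III allele and the wgIs178 insertion, which supplies SKN-1 fused to eGFP, and both biological replicates had this genotype. The labels name 1 group of 2 replicates, so nothing was compared between conditions, and worms without the tag were not analysed here. The tagged factor was precipitated from whole larvae, so strong binding in few cells and weak binding in many cannot be told apart.

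Glutathione S-transferases attach the tripeptide glutathione to reactive electrophiles, a step that makes such compounds soluble and ready for export. SKN-1, a relative of the mammalian Nrf proteins, activates detoxification genes when oxidants or electrophiles accumulate, largely in the intestine. It differs from Nrf factors in lacking a leucine zipper and binds DNA as a monomer. Its preferred site has the core GTCAT or ATCAT, preceded by T and a short run of A or T. A gst-4 promoter fused to GFP is the most widely used reporter of SKN-1 activity in living worms, and GST-10 is known for conjugating the lipid peroxidation product hydroxynonenal.

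The letters around the best SKN-1 site of each promoter show what the 10 genes shared. Each piece below has 30 bases of the ce11 assembly (WBcel235, the RefSeq genome sequence), read 5′ to 3′ on the named strand so that the site always runs the same way. Capitals mark the 8-base site. Where a promoter held several sites, the one nearest to the strongest summit is given, or the one nearest to the start where there was no summit. For gst-14, which had no whole site, the piece that best matched that of gst-12 is given.
gst-5 (chrII:10950253-10950282, minus strand): cttctctcacaATTGTCATcaaaaacgtag
gst-7 (chrII:4881976-4882005, minus strand): atattctgtagTTTGTCATcatttgctcta
gst-12 (chrII:13618029-13618058, plus strand): aaaacatcaaaATTGTCATcattttacggg
gst-4 (chrIV:10142082-10142111, plus strand): ttatttttgctTTTGTCATcatttttccac
gst-13 (chrII:9231435-9231464, plus strand): gttcactatcaATTGTCATcatgtagaaaa
gst-30 (chrII:4935152-4935181, minus strand): aattccaagcaATTGTCATcattttggcaa
gst-6 (chrII:4879776-4879805, plus strand): caagttttggtTTTGTCATcaaatatcttc
gst-38 (chrV:15916012-15916041, plus strand): acgccaagtttATTGTCATcaaatgttttc
gst-10 (chrV:2561633-2561662, minus strand): taccaatttgaATTGTCATcaacatagatt
gst-14 (chrII:13616198-13616227, plus strand): aaaagatcaaaATCGTCATcatttacggga
The whole SKN-1 site was TGTCAT or TATCAT after 2 bases that are each A or T, searched on both strands. It was found in 9 of the 10 promoters, counted from 250 bases before to 50 bases after the most upstream transcript start. Among all 19973 protein-coding promoters of that length, 3295 (16.5%) held it, and among the promoters of 39 other glutathione S-transferase genes 18 did. The gene without a whole site was gst-14. The core alone, GTCAT or ATCAT, lay in all 10 of these promoters and in 72.1% of all promoters.

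In all 10 pieces the core was GTCAT and was followed by CA, so that the letters GTCATCA were common to every member. This was noticed after the pieces were read, and the count is a description only. Each piece shows a chosen site, and that of gst-14 was chosen by its match to gst-12. Further whole sites in these promoters had the core ATCAT at gst-6, gst-30 and gst-38, and GTCAT at gst-4, gst-5 and gst-30. On either strand, GTCATCA lay in 10 of the 10 promoters, in 11 of the 39 other glutathione S-transferase promoters and in 881 (4.41%) of all promoters. The antioxidant response element bound by mammalian Nrf factors, which is TGAC, any 3 bases and GC, lay in none of the 10 promoters and in 5.15% of all promoters. TGATAA, a site of intestinal GATA factors, lay in 5 of the 10, those of gst-4, gst-6, gst-13, gst-30 and gst-38, and in 30.2% of all promoters.

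Binding was read from 4 deposited lists of regions. An optimal list held the 3484 peaks that passed the authors' irreproducible discovery rate (IDR) threshold, a pooled list held 27729 regions from both replicates together, and each replicate's own list held 30000 regions. The last 3 lists include background. Each region has a signal value that orders regions within its own list, rank 1 being the strongest. The optimal peaks were also the 3484 strongest regions of the pooled list, so their signal values could be set beside pooled ones. Signal values of a replicate's list were not compared with those of any other list. A gene was called bound when the summit of an optimal peak lay from 1000 bp upstream to 200 bp downstream of one of its transcript starts. Optimal signal values ran from 33 to 1810.2 with a median of 58.1.

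Of the 10 genes, 6 were bound in the optimal list (60.0%, Wilson 95% interval 31.3 to 83.2), against 15.1% of all protein-coding genes. They were gst-5, gst-7, gst-12, gst-4, gst-13 and gst-30, in order of rank. Among the 3484 strongest regions of replicate 1 alone, 5 were bound against 14.1% of all genes, gst-30 being lost. In replicate 2, treated the same way, the same 6 genes were bound, against 14.9%. The 4 genes not bound were gst-6, gst-10, gst-14 and gst-38. When any region of the pooled list was accepted, 8 of the 10 had one, against 44.7% of all genes, and gst-10 and gst-14 remained without. Any region of replicate 1 was found at 7 genes, against 45.8%, and any region of replicate 2 at 8, against 46.2%. With shares of all genes this high, a weak region alone says little about a gene. The count stayed at 6 under some other ways of assigning optimal peaks, against 12.2% of all genes with a window from 500 bp upstream to 100 bp downstream, 15.9% where any overlap of the peak with the window counted and 14% from the most upstream start alone. Assignment to the nearest gene and a wider window changed it, as described at gst-4 and gst-14.

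**Figure D1:**
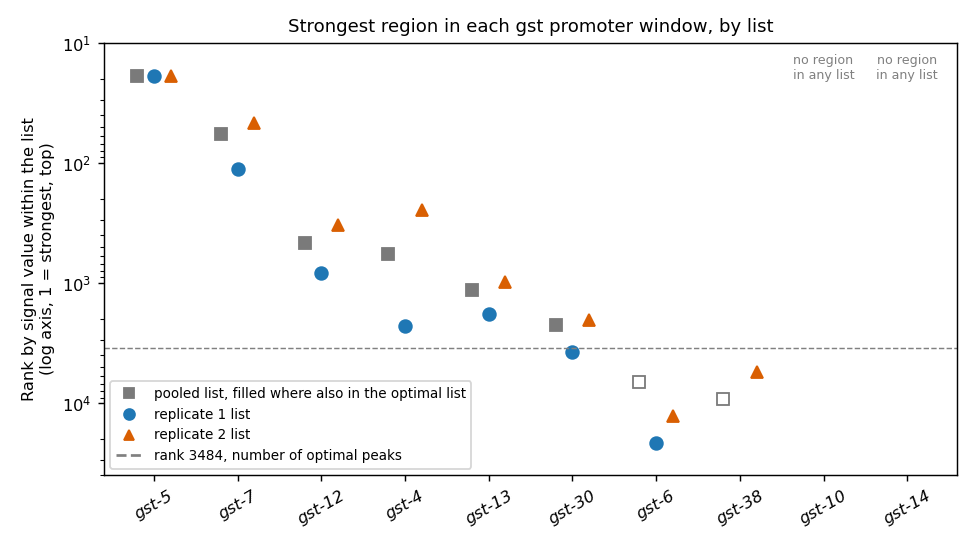
Rank of the strongest region in the promoter window of each gene (log axis, strongest at the top) in the pooled list and in each replicate's list. Filled squares are pooled regions that are also optimal peaks, open squares those that are not, and the dashed line is rank 3484. gst-5 stood at rank 19 in every list, the 3 points of gst-4 were the most spread among bound genes, and gst-10 and gst-14 had no region.

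The ranks of the bound members ran from 19 to 2244 with a median of 518, while the median over all 3007 bound genes was 1447. All 6 optimal peaks had a −log10 q-value of 3.67, the highest in that list, so the q-value did not order them.

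gst-5 (WBGene00001753, chromosome II, 10950352 to 10951603, plus strand) had the strongest peak of the family. Its optimal peak spanned chrII:10950125-10950400 in the intergenic stretch before the gene, with a signal of 416.3 and a summit 103 bp upstream of the start. Replicate 1 gave a signal of 182.7 at rank 19 and replicate 2 a signal of 242.8, also at rank 19, and the 2 summits were 11 bp apart. The bases within 75 bp of the optimal summit are given because this was the strongest of the 10 peaks, with the SKN-1 core in capitals.
gst-5 (chrII:10950174-10950324, plus strand): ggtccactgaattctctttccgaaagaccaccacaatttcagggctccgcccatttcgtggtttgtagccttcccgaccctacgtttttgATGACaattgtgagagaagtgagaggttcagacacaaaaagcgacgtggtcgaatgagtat
The only core in this window was the one in the whole site, read on the other strand, whose centre lay 18.5 bp from the summit. A pair of weaker pooled regions also fell in the windows of gst-5, which has 2 annotated transcript starts. One stood at rank 13754, 830 bp upstream, and the other at rank 25080 in an intron, 311 bp before the second start. Their −log10 q-values were 0.19 and 0.03.

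gst-7 (WBGene00001755, chromosome II, 4882062 to 4883358, plus strand) came next, at rank 58 with a signal of 266.7. Its peak, chrII:4881909-4882079, had its summit 72 bp upstream of the start. In replicate 1 the signal was 99.5 at rank 113, in replicate 2 it was 169.8 at rank 47, and the summits differed by 1 bp. At 171 bp the peak was also narrow. Only 3.76% of optimal peaks were under 200 bp wide, though 68 of the 100 strongest were. The summit window of gst-7 is given because the site lay closest to the summit there, with its centre 0.5 bp away.
gst-7 (chrII:4881915-4882065, plus strand): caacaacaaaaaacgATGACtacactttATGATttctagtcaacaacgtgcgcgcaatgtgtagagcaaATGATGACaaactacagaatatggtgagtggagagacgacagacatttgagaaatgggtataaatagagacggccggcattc
Of the 4 core matches in capitals, 2 overlap at the summit and the others lie upstream of it.

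gst-12 (WBGene00001760, chromosome II, 13616682 to 13618061, minus strand) had the optimal peak chrII:13617920-13618215, with a signal of 116.1 at rank 464 and a summit 7 bp upstream of the start. Replicate 1 ranked it 827 with a signal of 41.1, and replicate 2 ranked it 328 with a signal of 78.2. The replicates placed it differently. The summit of replicate 1 lay 79 bp downstream of the start, in an untranslated exon, and that of replicate 2 lay 11 bp upstream. That gap of 90 bp was reached by 3.87% of the optimal peaks seen in both replicates, for which the median gap was 22 bp. The whole site began 14 bp downstream of the start, 24.5 bp from the pooled summit.

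gst-4 (WBGene00001752, chromosome IV, 10142225 to 10143099, plus strand) shared its peak with neighbours. The summit of the peak chrIV:10141970-10142265 lay 107 bp upstream of gst-4 in a gap of 163 bp that separates it from gst-2, a glutathione S-transferase gene read the other way. The same summit was 57 bp upstream of gst-2 and 337 bp upstream of dhs-12, a gene named as a dehydrogenase of the short-chain family. When each summit was given only to the gene with the nearest start, this one went to gst-2, and 5 of the 10 members stayed bound against 11% of all genes.

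The replicates put the peak at gst-4 in nearly the same place and at very different ranks. Replicate 1 ranked it 2271 with a signal of 21.3, and replicate 2 ranked it 249 with a signal of 87.1, with summits 5 bp apart. The larger rank was 9.12 times the smaller. A ratio as large was found for 83 (2.57%) of the 3229 optimal peaks that had a region of both replicates within 100 bp, and the median ratio was 1.79. For the other 5 bound members the ratio ran from 1.00 for gst-5 to 2.52 for gst-12. The position of gst-4 in the order of the family therefore differed. In replicate 1 gst-13 and gst-12 stood above it, and in replicate 2 it stood above both. The summit window of gst-4 is given because this promoter is the reporter and held a pair of whole sites in opposite directions.
gst-4 (chrIV:10142043-10142193, plus strand): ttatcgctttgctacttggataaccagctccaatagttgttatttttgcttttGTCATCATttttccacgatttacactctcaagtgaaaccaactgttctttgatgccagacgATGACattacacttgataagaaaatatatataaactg
The site upstream of the summit was centred 21.5 bp from it and the other 42.5 bp from it. The letters TGATAA lay beyond the second site on the printed strand.

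**Figure D2:**
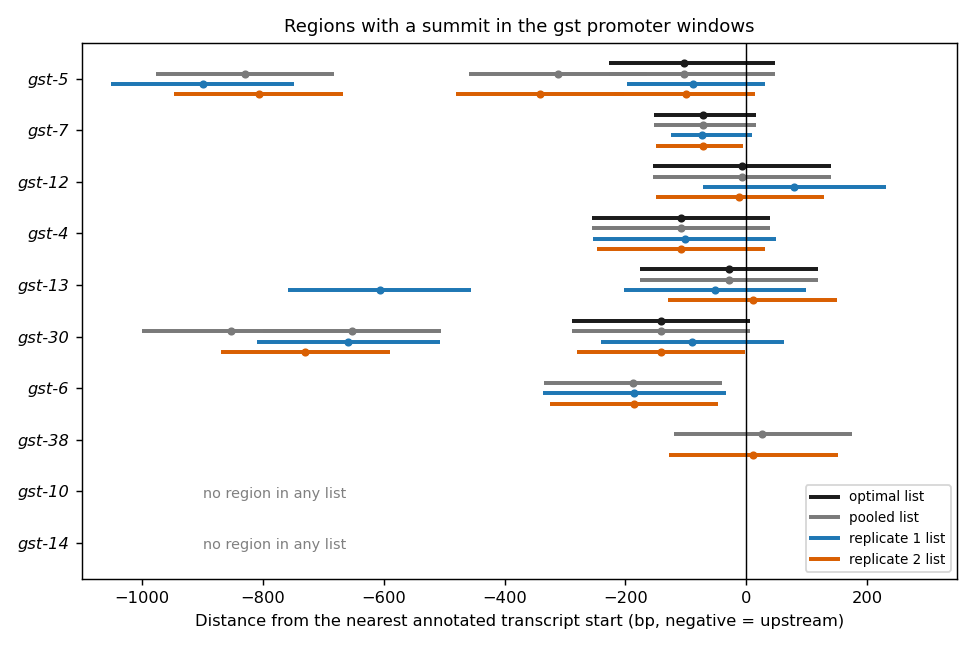
Position of every region with a summit in a promoter window, in bp from the nearest annotated transcript start (negative is upstream). Bars are regions and dots are summits, coloured by list. The strongest summits of the 6 bound genes lay between 141 bp upstream of the start and 79 bp downstream of it in all lists, and gst-10 and gst-14 had none.

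gst-13 (WBGene00001761, chromosome II, 9231457 to 9232344, plus strand) had the peak chrII:9231281-9231576 at rank 1146 with a signal of 75.3, its summit 28 bp upstream. Replicate 1 ranked it 1824 with a signal of 25.3 and a summit 51 bp upstream, and replicate 2 ranked it 980 with a signal of 47.7 and a summit 11 bp downstream. The whole site began 11 bp upstream of the start, between the summits of the replicates.

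gst-30 (WBGene00001778, chromosome II, 4933883 to 4935054, minus strand) was the weakest bound member. Its peak chrII:4935047-4935342 ranked 2244 with a signal of 48.3, its summit 141 bp upstream of the start. Replicate 2 ranked it 2017 with a signal of 31.2, within its 3484 strongest regions. Replicate 1 ranked it 3728 with a signal of 14.3, outside them, and its −log10 q-value there was 2.41. The gene was also not bound when only the 1742 strongest optimal peaks were used, which left 5 of the 10 members and 8.81% of all genes.

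The gap before gst-30 is 763 bp and is shared with ZK546.5, a gene read the other way whose start is 623 bp from the summit. A second region in this gap missed the optimal list narrowly. It stood at rank 3521 in the pooled list with a signal of 32.5, just under the weakest optimal signal, with a −log10 q-value of 2.33. Its summit was 653 bp upstream of gst-30 and 111 bp upstream of ZK546.5. Around the stronger summit a pair of whole sites lay on opposite sides, centred 28.5 and 29.5 bp away, which is why this window is given.
gst-30 (chrII:4935120-4935270, minus strand): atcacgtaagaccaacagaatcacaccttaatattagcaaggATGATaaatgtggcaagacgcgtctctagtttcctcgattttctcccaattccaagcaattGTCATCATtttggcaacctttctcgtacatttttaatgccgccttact
The letters TGATAA in this window overlap the first of the cores, since ATGAT and TGATAA share bases there.

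The members without an optimal peak fell into 2 kinds, those with a weak region and those with none. At gst-6 (WBGene00001754, chromosome II, 4879891 to 4881105, plus strand) a pooled region at rank 6679, with a signal of 19.2, had its summit 187 bp upstream of the start. It ranked 21391 in replicate 1 and 12890 in replicate 2, and both replicates placed the summit 185 bp upstream. The −log10 q-value was low, at 0.81 in the pooled list, 0.22 in replicate 1 and 0.47 in replicate 2. The best whole site of gst-6 was 86.5 bp from the pooled summit, farther than in any bound member. At gst-38 (WBGene00001786, chromosome V, 15915162 to 15916070, minus strand) a pooled region at rank 9333 with a signal of 15.7 lay 27 bp downstream of the start. It was at rank 5553 in replicate 2, 12 bp downstream, and absent from the list of replicate 1. Its −log10 q-value was 0.43 in the pooled list and 1.40 in replicate 2. A whole site was centred 16.5 bp from the pooled summit.

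gst-14 (WBGene00001762, chromosome II, 13614781 to 13616100, minus strand) lies 581 bp downstream of gst-12 on the same strand and had no region in its window in any of the 4 lists. Its promoter is unique sequence, 100% of its 300 bases starting a 36-base stretch found once in the genome. The nearest optimal summit was that of gst-12, 1968 bp upstream, and it entered the window only when this was widened to 2000 bp, which gave 7 bound members against 19.1% of all genes.

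gst-12 and gst-14 encode the most alike proteins of the 10. Their promoters could be set side by side, the first with an optimal peak and the second without. The proteins of gst-12 and gst-14 were identical at 81.3% of the residues of the shorter protein. The gst-14 piece was placed without gaps, matching gst-12 at 24 of 30 bases, and the next best ungapped placement in that promoter had 11 mismatches. With 1 base of gst-12 left out, a comparison added after the pieces were seen, 27 of the remaining 29 bases matched. The base left out was a T of the run of T at positions 22 to 25, counted from 1 at the 5′ end of the gst-12 piece. The 2 substitutions that remained were C5G and T14C, gst-12 first. The latter lies in the 8-base site, where it is T3C counted from the first base of the site, and leaves gst-14 with the core and without the whole site. The piece begins its site 116 bp upstream of the start in gst-14 and 14 bp downstream in gst-12. A single pair of genes cannot show what a base does to binding.

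gst-10 (WBGene00001758, chromosome V, 2561690 to 2564645, plus strand) had no region in any list either, and its promoter is repeated sequence, in which reads are hard to place. Only 15.1% of its promoter windows was sequence found once in the genome as 36-base stretches, and 16.2% as 50-base stretches. An identical copy of its 300-base promoter, with 0.00% unique bases, lies 108279 bp away at chrV:2453161-2453460, in front of F56A4.3. No list had a region in the window of that gene. The promoter of gst-10 held a whole site beginning 46 bp upstream of the start, and whether reads from it were dropped or binding was missing cannot be told apart. In the other members the share of unique sequence was 71.9% for gst-12 and between 93.9% and 100% elsewhere, and all 6 optimal peaks lay wholly in unique sequence.

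**Figure D3:**
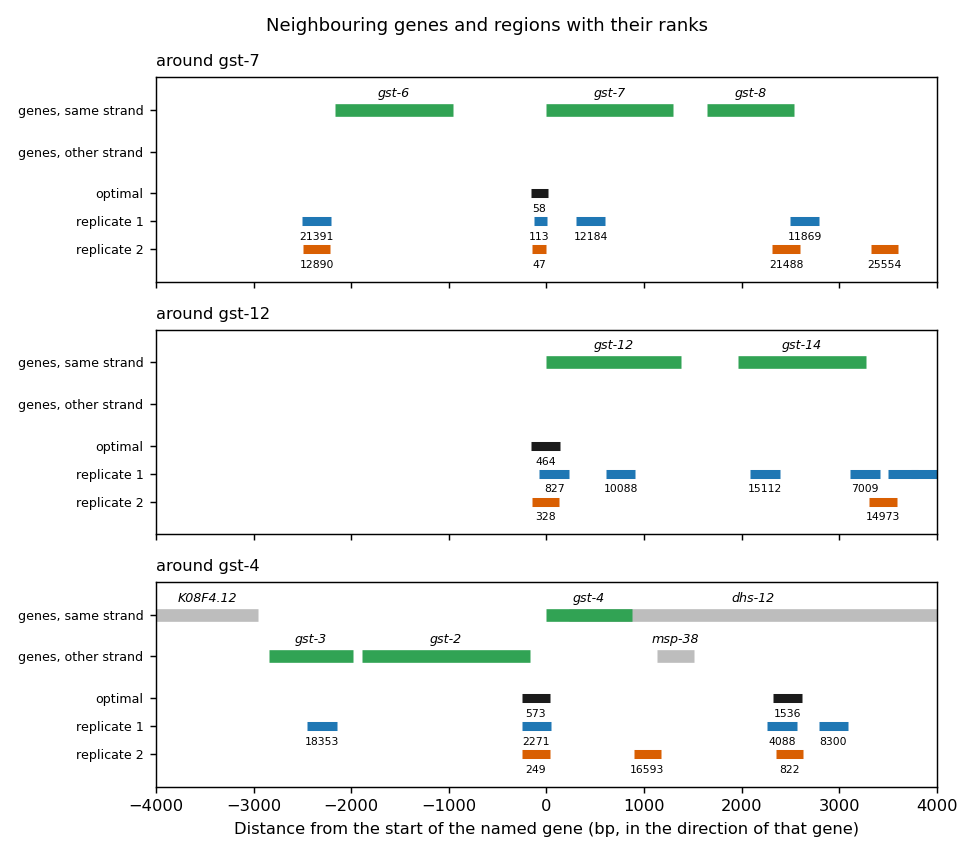
Genes (green for glutathione S-transferases, grey for others) and regions within 4000 bp of the starts of gst-7, gst-12 and gst-4, drawn in the direction of each gene, with the rank in its list under each region whose summit lies well inside the panel. The optimal peaks at rank 58, 464 and 573 lay before gst-7, gst-12 and gst-4, gst-6 and gst-14 had none, and a further optimal peak at rank 1536 lay inside dhs-12.

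Of the 10 genes, 7 lie on chromosome II, 2 on V and 1 on IV, and several sit in clusters of family members. gst-6, gst-7 and gst-8 follow each other on the same strand. Of these, gst-7 alone had an optimal peak in its window, and its summit was the optimal summit nearest to gst-6, 2099 bp downstream of the gst-6 start. In the cluster around gst-12, gst-16 had a peak at rank 85 with a signal of 234.4, and gst-20 one at rank 1341 with a signal of 69.4, on either side of gst-12 and gst-14.

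The optimal summits of the 6 bound genes all had the SKN-1 site close by. Within 75 bp of the summit, the core was present at 6 of 6 and at 42.5% of all 3484 optimal peaks. The whole site was present at 6 of 6 and at 327 (9.39%) of all. Its centre was within 30 bp of the summit at 6 of 6 and at 160 (4.59%) of all. The 30 bp limit was not planned, and the nearest site at gst-30, the farthest of the 6, was 28.5 bp away. The 6 of 6 at this limit is a description only. Members averaged 1.33 whole sites per window, and all optimal peaks 0.106. Its share was 36% among the 100 strongest optimal peaks. The antioxidant response element was at 0 of 6 and at 3.87% of all optimal peaks. TGATAA was at 2 of 6, gst-4 and gst-30, and at 8.47% of all.

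Base composition was not alike across the windows. GC content was 47.7% at gst-5 and ran from 33.8% at gst-4 to 41.1% at gst-7 in the other bound members. The median over all optimal windows was 43.7%, so every bound member but gst-5 lay below it. A site rich in A and T is met more often in windows rich in them. The part of base composition in the counts was not tested.

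**Figure D4:**
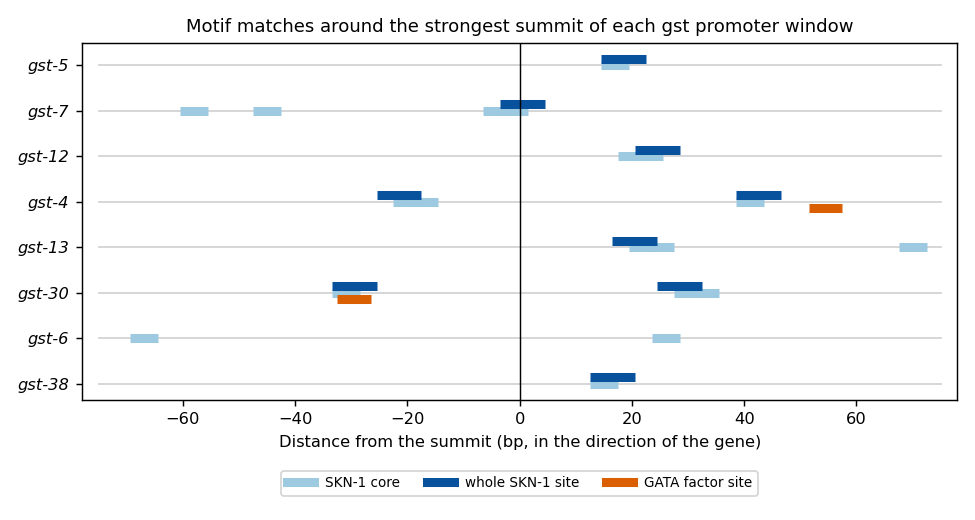
Matches of the SKN-1 core, the whole SKN-1 site and the GATA factor site TGATAA within 75 bp of the strongest summit in each promoter window, in bp from that summit in the direction of the gene. Summits of gst-6 and gst-38 are from the pooled list, the others are optimal. The whole site nearest to the summit was centred from 0.5 bp (gst-7) to 28.5 bp (gst-30) away in the bound genes, and gst-6 had none in the window.

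The rest of the family and the enzymes that make and recycle glutathione were read the same way. Of 39 other glutathione S-transferase genes 10 were bound (25.6%, Wilson 95% interval 14.6 to 41.1), again against 15.1% of all genes. These 10 include gst-2, whose peak at rank 573 is also the peak counted for gst-4, so it enters both lists. The 4 with the strongest peaks were gst-16 at rank 85, gst-1 at rank 86, gst-31 at rank 406 and gst-27 at rank 541. The strongest regions of replicate 1 and of replicate 2 also gave 10, against 14.1% and 14.9% of all genes, but not the same 10. Replicate 1 lost gst-25 and gained gst-44, and replicate 2 lost gst-32 and gained gst-43. Of 17 glutathione synthesis, reduction and peroxidase genes 6 were bound (35.3%, interval 17.3 to 58.7). The 4 strongest were glrx-10, a glutaredoxin, at rank 14, gcs-1, the catalytic subunit of the rate-limiting enzyme of glutathione synthesis, at rank 308, gss-1, glutathione synthetase, at rank 1127, and gsr-1, glutathione reductase, at rank 1631. The whole site was within 75 bp of the summit in 6 of the 10 other bound glutathione S-transferase genes, gst-2 among them. It was there in 4 of the 6 bound glutathione genes. The intervals cover the counting of genes only and treat genes as independent draws, which these chosen lists are not. The differences between the lists were not tested.

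**Figure D5:**
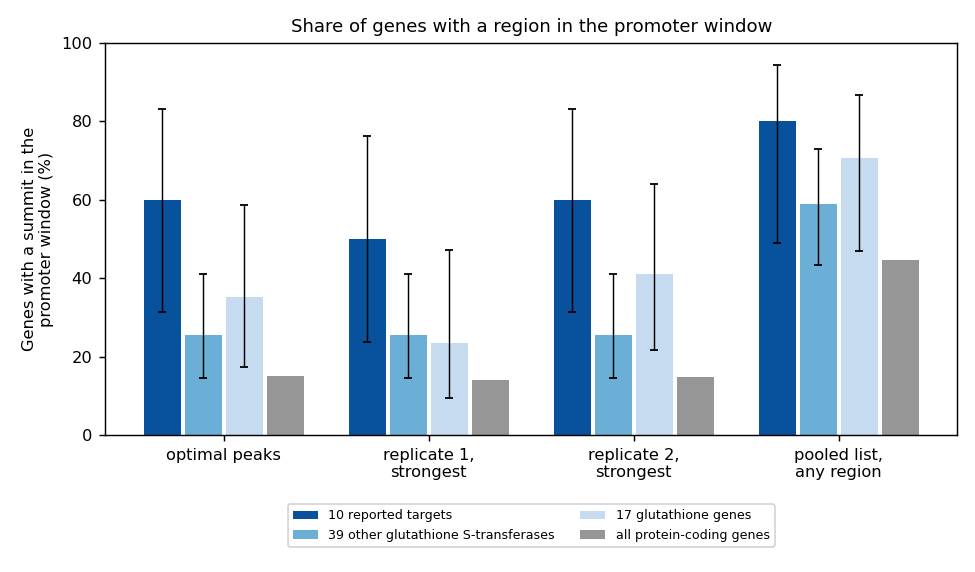
Share of genes with a summit in the promoter window for the 10 reported targets, the 39 other glutathione S-transferases, the 17 glutathione genes and all protein-coding genes, by the list used. Bars start at 0 and error bars are Wilson 95% intervals. The reported targets reached 60.0% in the optimal list and 80.0% when any pooled region counted, where all genes stood at 15.1% and 44.7%.

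Members with and without an optimal peak were mixed among the close protein pairs. The annotated proteins have 206 to 213 residues. Over the 45 pairs, identity as a share of the shorter protein ran from 27.8% to 81.3%, with a median of 41.3%. The 15 pairs of 2 bound members had a median of 43%. gst-7 and gst-30, both bound, shared 73.3%, while gst-5, the strongest, shared 66.7% with gst-38, which had no optimal peak. gst-10 stood apart, its closest member being gst-7 at 31.1%.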

How the data were processed

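Per the deposited readme, the authors made each replicate's list of regions from its alignments and 1 control alignment shared by both, a pooled list from both replicates, and an optimal IDR-thresholded list. The signal value and the −log10 q-value of each region are used as deposited by the authors. The sources used here do not give the caller, the aligner, the IDR threshold or the read depth. The ce11 lists were used, and the ce10 lists were not. Per the labels, fragments measured 150 to 350 bp.

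Genes and proteins came from Ensembl release 115 and bases from the RefSeq WBcel235 sequence, with coordinates counted from 1. Summits were placed in windows from 1000 bp upstream to 200 bp downstream of every transcript start, and motifs were searched on both strands within 75 bp of summits. Both steps were tested on simulated data. Proteins were translated from the longest annotated coding sequence and aligned globally (BLOSUM matrix, gap penalties 10 and 0.5). Python 3.11.15, numpy 2.4.6, scipy 1.17.1, biopython 1.88 and matplotlib 3.10.9 were used. No test across genes was made.

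The members and lists were chosen with earlier results of these data known. The genes named are all 10 members, genes that share a member's region, and the 4 strongest bound genes of each other list. A few others were named after their values were seen (cluster neighbours and genes lost or gained under an alternative). Alternatives were other windows, the nearest gene only, the stronger optimal peaks, region overlap and each replicate alone.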

Additional observations from a re-analysis of the deposited data

How the results depend on the processing

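Any region of the pooled or replicate lists, background included, was found at 7 or 8 members, as given above. Under the alternatives below, the count of bound members, 6, kept within 5 to 7. It was 6 with a window of 500 bp upstream to 100 bp downstream, with any overlap of the region, with the 3484 strongest pooled regions (the same regions as the optimal list) and with the most upstream start alone, an alternative added after seeing the data. It was 7 with 2000 bp upstream, and 5 with the nearest gene only or the stronger optimal peaks. Leaving out a replicate gave 5 to 6 members, 10 other glutathione S-transferase genes each time, not all the same ones, and 4 to 7 glutathione genes. With the narrow window the bound glutathione genes fell from 6 to 3, since gcs-1, gspd-1 and glrx-3 have summits over 500 bp from the start. TGATAA, at 2 members within 75 bp of the summit, was at 1 within 50 bp, against 5.20% of optimal peaks, and at 3 within 150 bp, against 21.2%. The core and the whole site stayed at 6 of 6 within 50 bp, against 31.9% and 7.0% of optimal peaks, and within 150 bp, against 65.6% and 16.2%. No paired analysis was possible because the series has 1 group and no test. Depth is unknown, so a gene without a region in these lists is not shown to be unbound.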
